A study of Mus musculus with 4 samples.

Results

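Interferon response genes are transcribed when a cell senses type I or type II interferon, and the set examined here holds 39 of them, chosen by name. This set and the further gene lists were chosen with earlier results of these data known, so their shares of calls are not independent of the choice. Of these, 37 had a row in both deposited tables, which list 14939 genes for the ACE sort and 14943 genes for the CD74 sort. Mx1 and Mx2, antiviral GTPases, had no row in either table and are not described further. RNA-seq libraries were made from cells of mouse periosteum, the sheath on the outer surface of bone, at postnatal day 28. All 4 groups came from male wild-type C57BL/6 animals, and all cells were sorted with antibodies to CD45, a marker of blood-derived cells, and to Cx3cr1, a chemokine receptor of monocytes and macrophages. The groups were cells positive for ACE (angiotensin-converting enzyme), cells negative for ACE, cells positive for CD74 (invariant chain, a chaperone of MHC class II) and cells negative for CD74. Each group was 1 library, and the labels do not give the number of animals behind it. No replicate spread exists, so every difference below compares 2 libraries and has no replicate check.

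Type I interferons signal through the receptor chains Ifnar1 and Ifnar2 and the kinases Jak1 and Tyk2 to a complex that holds Stat2 and Irf9. This complex binds the interferon-stimulated response element, or ISRE, in the promoters of its target genes. Type II interferon signals through the receptor chains Ifngr1 and Ifngr2, and its target promoters often hold the gamma-activated site, or GAS. The targets include sensors of viral nucleic acid, proteins that degrade or block viral RNA, and GTPases that attack intracellular vacuoles, and monocytes and macrophages express many of them at rest.

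The libraries held 10944171 reads on listed genes in ACE-positive cells, 12561196 in ACE-negative cells, 13282126 in CD74-positive cells and 7020232 in CD74-negative cells. Levels are given in CPM, the usual unit of reads relative to library size. The genes of the sorted proteins followed the labels: Ace stood at 1215 CPM in ACE-positive and 11.6 CPM in ACE-negative cells, and Cd74 at 2157 CPM in CD74-positive and 455 CPM in CD74-negative cells. Each also differed in the other sort. Cd74 stood at 3709 CPM in ACE-positive and 559 CPM in ACE-negative cells, a 6.64-fold difference, against 4.74-fold in the CD74 sort. Ace stood at 233 CPM in CD74-positive and 64.5 CPM in CD74-negative cells, a 3.62-fold difference. Ptprc, which encodes CD45, and Cx3cr1 were present in all 4 libraries. Ptprc had 1585 CPM in ACE-positive and 831 CPM in ACE-negative cells, and 1217 CPM in CD74-positive and 921 CPM in CD74-negative cells. Cx3cr1 had 475 CPM in ACE-positive and 180 CPM in ACE-negative cells (2.64-fold), and 283 CPM in CD74-positive and 158 CPM in CD74-negative cells (1.79-fold). Markers of other cell types were examined too, with calls as defined below. Over all genes tested, 9.46% were called higher and 8.62% lower in ACE-positive cells, and 9.08% and 7.73% in CD74-positive cells. Of 11 sorting and macrophage markers, which include Ace and Cd74, 6 were called higher in ACE-positive cells (summed level 10385 CPM, against 3354 CPM in ACE-negative cells). In CD74-positive cells 3 were called higher (6273 CPM, against 3307 CPM in CD74-negative cells), and 0 were called lower in either sort. Of 11 nonclassical monocyte markers, 10 were called higher in ACE-positive cells (summed level 6786 CPM, against 1326 CPM in ACE-negative cells) and 8 in CD74-positive cells (2696 CPM, against 1375 CPM in CD74-negative cells). This list holds Ace, the gene of a sorted protein. Without Ace, 9 of 10 were called higher in ACE-positive cells (5571 CPM, against 1315 CPM) and 7 of 10 in CD74-positive cells (2463 CPM, against 1310.5 CPM). Of 8 classical monocyte markers, 5 were called lower in ACE-positive cells (6482 CPM, against 13508 CPM), and 0 in either direction in CD74-positive cells (11260 CPM, against 12650 CPM). The neutrophil markers summed to 11443 CPM in ACE-positive and 16447 CPM in ACE-negative cells, with 2 of 10 called lower, and to 14125 CPM in CD74-positive and 28126 CPM in CD74-negative cells, with 3 of 10 called lower. Markers of plasmacytoid dendritic cells, known as strong producers of type I interferon, summed to 162 CPM in ACE-positive and 192 CPM in ACE-negative cells (2 of 7 called lower), and to 161 CPM in CD74-positive and 214 CPM in CD74-negative cells (4 of 8 called lower). A large part of these sums came from Tcf4 and Runx2, called in neither sort. Tcf4 had 58.4 CPM in ACE-positive and 46.6 CPM in ACE-negative cells, and Runx2 had 52.3 and 52.5 CPM. Siglech, named after its values were seen, was called lower in both sorts. It had 8.81 CPM in ACE-positive and 32.6 CPM in ACE-negative cells, and 12.0 CPM in CD74-positive and 36.6 CPM in CD74-negative cells. None of the markers tested was at 0 reads. Relative to genes of like length, as described below, 9.21% of all genes were called higher and 4.86% lower in ACE-positive cells, and 6.71% and 4.05% in CD74-positive cells. A single marker called in a direction is near these shares and is no result about its list. By this measure 0 neutrophil markers were called lower in either sort, and 1 was called higher in ACE-positive cells. On that scale plasmacytoid dendritic cell markers had 1 called lower in ACE-positive cells, and 3 lower and 1 higher in CD74-positive cells. The sorting and macrophage list had 7 called higher in ACE-positive and 5 in CD74-positive cells. The nonclassical list had 10 called higher in ACE-positive and 9 in CD74-positive cells, and the classical list 4 lower in ACE-positive cells. The part of these shifts in the interferon response genes was not tested, and in such bulk samples fewer cells of a type and less RNA per cell cannot be told apart.

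The interferon response genes were on the whole higher in the ACE-positive than in the ACE-negative library, with none called lower. A gene was called higher or lower where the log2 ratio of CPM + 1 was at least 1 in size, the mean of both libraries reached 5 CPM, and the 95% counting interval of its fold excluded 1. All 37 genes passed the minimum on the mean. In ACE-positive cells 14 of 37 (37.8%) were called higher, against 9.46% of all 9656 genes tested. None was called lower, against 8.62% of all genes. The median log2 ratio was 0.65, against -0.08 over all genes, and the values ran from -0.59 (Ifi35) to 1.81 (Oas2). Their levels summed to 7478 CPM in ACE-positive cells and 4643 CPM in ACE-negative cells, a 1.61-fold difference.

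The CD74 sort gave the same direction for most of the set, with fewer calls. In CD74-positive cells 9 of 37 (24.3%) were called higher, against 9.08% of all 9719 genes tested, and none lower, against 7.73% of all genes. The median log2 ratio was 0.45, against -0.03 over all genes, with a range of -0.99 (Ifi35) to 1.97 (Oas2). Levels summed to 6660 CPM in CD74-positive cells and 4659 CPM in CD74-negative cells, a 1.43-fold difference. The intervals cover counting error only, and the reads carry no molecular identifiers. By these intervals 30 genes were above 1, 2 below 1 and 5 not distinguishable from 1 at this depth in the ACE sort, and 26, 3 and 8 in the CD74 sort. The share of all genes by this measure was not computed, so these counts are a description. The log2 ratio was above 0 for 83.8% of the 37 genes in the ACE sort, against 45.5% of all genes tested. In the CD74 sort these shares were 81.1% and 48.2%.

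**Figure D1:**
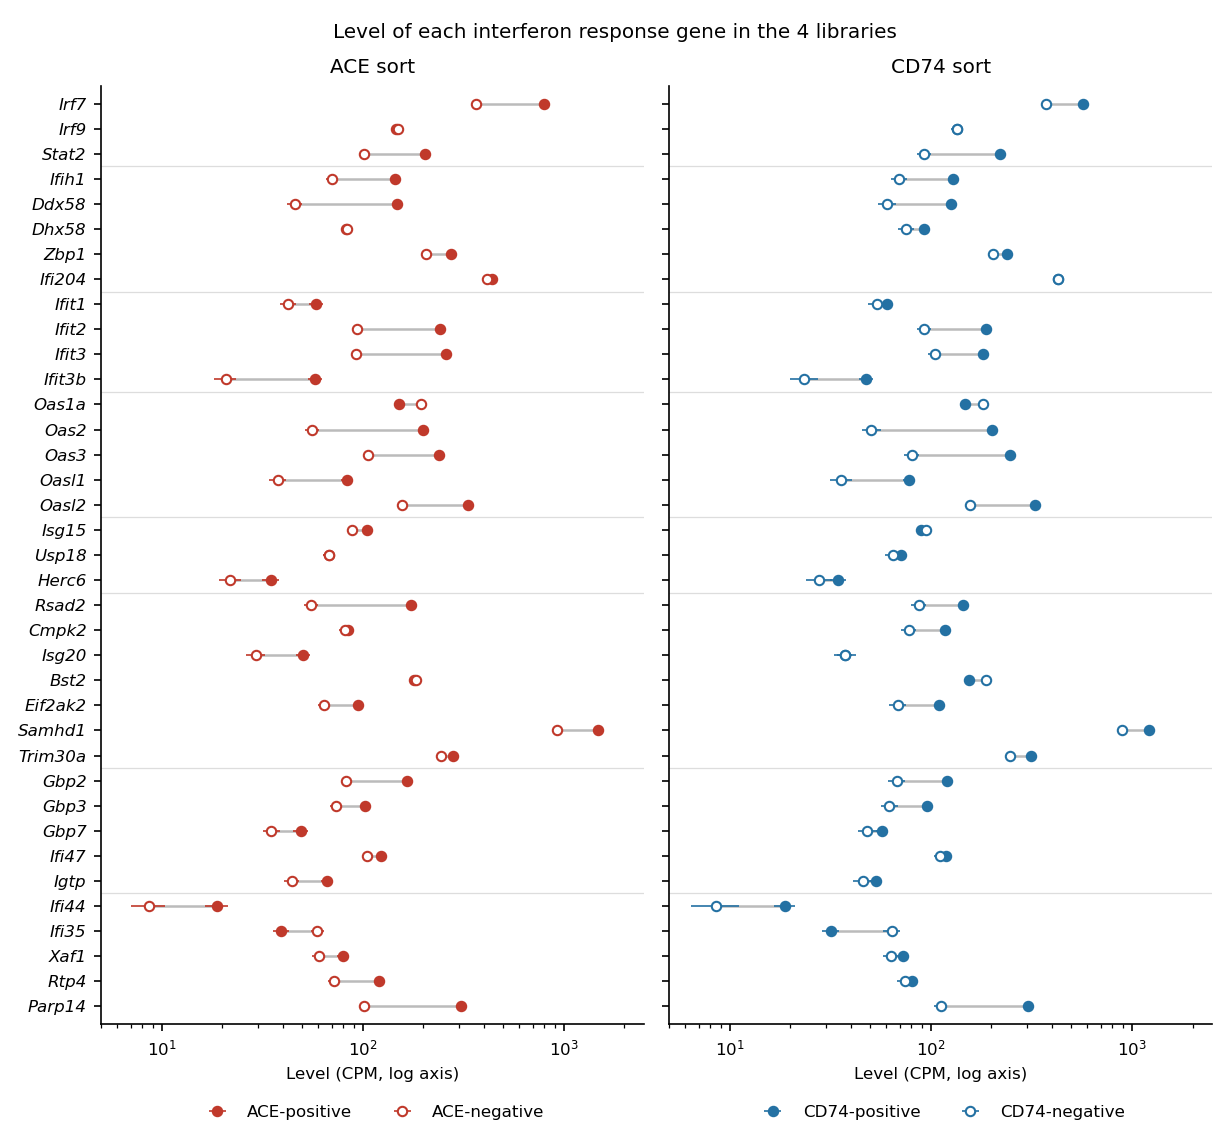
Level of each of the 37 interferon response genes (CPM, log axis) in the ACE sort (left) and the CD74 sort (right), in blocks by role. Filled points are the positive library, open points the negative library, and bars are 95% counting intervals; Oas2 lies at 199 CPM in ACE-positive and 56.0 CPM in ACE-negative cells, while Oas1a and Ifi35 have their filled point on the left of the open one in both sorts.

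Promoter sequences were examined because the set is defined by a response that acts through short promoter elements. RefSeq promoters on GRCm38.p6, running from 250 bases before to 50 bases after the start of transcription, were matched by symbol for 30 of the 39 genes. The ISRE core was searched as GAAA, then any 2 bases, then GAAA, and the GAS core as TTCNNNGAA, with N for any base, both of them on either strand. Matches of the ISRE core may overlap each other, and the last bases of a GAS core can be the first of an ISRE core. The 250 bases before the start are printed here for genes that differ in their ratios and that all hold the ISRE core there. Sequences run 5′ to 3′ on the gene's strand, with each ISRE core match in capitals. Where the core lies on the opposite strand it reads TTTC, any 2 bases, TTTC. The first 4 were called higher in ACE-positive cells. They are Ifit3 (chr19:34583279-34583528, plus strand), Ifit3b (chr19:34607707-34607956, plus strand), Oas3 (chr5:120777660-120777909, minus strand) and Rsad2 (chr12:26456453-26456702, minus strand). The other 3 were called in neither sort. They are Isg15 (chr4:156200819-156201068, minus strand), Bst2 (chr8:71537473-71537722, minus strand) and Ifit1 (chr19:34640639-34640888, plus strand).
Ifit3: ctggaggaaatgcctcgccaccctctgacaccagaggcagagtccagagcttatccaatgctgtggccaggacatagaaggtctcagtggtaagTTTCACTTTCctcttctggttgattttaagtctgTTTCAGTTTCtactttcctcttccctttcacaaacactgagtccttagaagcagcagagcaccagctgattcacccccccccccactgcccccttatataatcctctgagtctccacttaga
Ifit3b: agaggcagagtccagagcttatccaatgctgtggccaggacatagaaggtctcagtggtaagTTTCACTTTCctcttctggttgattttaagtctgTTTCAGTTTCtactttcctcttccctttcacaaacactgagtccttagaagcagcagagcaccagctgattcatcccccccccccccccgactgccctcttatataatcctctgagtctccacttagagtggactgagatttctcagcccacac
Oas3: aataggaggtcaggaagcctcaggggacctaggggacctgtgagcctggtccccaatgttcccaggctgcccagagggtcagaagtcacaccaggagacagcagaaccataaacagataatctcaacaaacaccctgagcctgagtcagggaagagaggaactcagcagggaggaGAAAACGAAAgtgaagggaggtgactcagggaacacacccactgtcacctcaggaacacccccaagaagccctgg
Rsad2: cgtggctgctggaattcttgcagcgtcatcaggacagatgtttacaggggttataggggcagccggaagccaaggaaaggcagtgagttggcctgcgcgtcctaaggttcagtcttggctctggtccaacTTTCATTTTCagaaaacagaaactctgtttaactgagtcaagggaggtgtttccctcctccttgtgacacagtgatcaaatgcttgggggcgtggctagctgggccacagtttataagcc
Isg15: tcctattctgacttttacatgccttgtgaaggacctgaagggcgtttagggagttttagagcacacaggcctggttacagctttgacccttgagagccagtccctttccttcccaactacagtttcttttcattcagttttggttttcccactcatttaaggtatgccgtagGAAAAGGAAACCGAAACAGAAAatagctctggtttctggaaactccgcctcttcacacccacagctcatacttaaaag
Bst2: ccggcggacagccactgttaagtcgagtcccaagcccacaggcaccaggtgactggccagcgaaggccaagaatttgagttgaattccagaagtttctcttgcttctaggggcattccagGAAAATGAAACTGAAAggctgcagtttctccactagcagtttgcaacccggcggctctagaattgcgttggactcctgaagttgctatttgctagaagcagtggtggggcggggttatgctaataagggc
Ifit1: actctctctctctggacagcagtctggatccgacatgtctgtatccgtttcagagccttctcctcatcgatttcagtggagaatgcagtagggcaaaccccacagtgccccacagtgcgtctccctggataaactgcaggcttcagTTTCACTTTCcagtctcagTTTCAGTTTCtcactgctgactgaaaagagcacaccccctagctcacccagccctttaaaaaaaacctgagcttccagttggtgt

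The printed genes all hold the ISRE core, so they do not show how often it occurs. Irf7, Ifit2, Oasl1, Oasl2 and Ifi44, which were called and are not printed, had no match. Oas2 and Parp14, also called, had no promoter sequence to search. For Irf7, Oasl2 and Ifi44, and for the printed Ifit3, Ifit3b and Bst2, the start used was not found at a GENCODE M21 transcript start. Their windows and distances are therefore less sure. Of the 30 genes, 17 (56.7%) had the core in the 300-base window, against 3.99% of 27025 genes in the promoter table and 4.16% of the 7959 that reached 5 CPM. It was found in 7 of 12 genes called higher in a sort (58.3%) and in 10 of 18 called in neither (55.6%). The GAS core was found in 9 of 30 genes (30.0%), against 9.55% of all genes. It was in 1 of the 12 called genes (8.33%) and in 8 of the 18 others (44.4%). The matches before the start in Ifit3 began 156 and 122 bases upstream, and those in Ifit3b 188 and 154 bases upstream. With Ifit3b shifted by 32 bases, 86.2% of 218 compared bases of these promoters were the same, including an unbroken run of 169 bases that holds both matches. A match of these letters describes the sequence and does not show binding.

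Among the transcription factors, Irf7 and Stat2 were called higher and Irf9 was level. Irf7 (ENSMUSG00000025498, chromosome 7, 141262706 to 141266481, GRCm38) amplifies type I interferon production. It stood at 796 CPM in ACE-positive and 366 CPM in ACE-negative cells, and at 569 CPM in CD74-positive and 373 CPM in CD74-negative cells. Both negative libraries were alike and the ACE-positive library was the highest. The fold was 2.17 [95% interval 2.10 to 2.25] in the ACE sort, where it was called, and 1.53 [1.46 to 1.60] in the CD74 sort, where it was not. Stat2 (ENSMUSG00000040033, chromosome 10, 128270559 to 128292849) had 204 CPM in ACE-positive and 101 CPM in ACE-negative cells, a fold of 2.01 [1.88 to 2.16]. In the CD74 sort it had 222 CPM in CD74-positive and 92.4 CPM in CD74-negative cells, a fold of 2.40 [2.2 to 2.62]. Its partner Irf9 had 146 CPM in ACE-positive and 150 CPM in ACE-negative cells, with 135 CPM in both CD74-positive and CD74-negative cells, so Irf9 was level in both sorts while Stat2 was called in both. The Stat2 call in the ACE sort lay at the threshold, with a log2 ratio of 1.00.

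The sensors of viral RNA were split. Ddx58 and Ifih1 are helicases that recognise viral double-stranded RNA in the cytoplasm. Ddx58 (ENSMUSG00000040296, chromosome 4, 40203773 to 40239828) had 148 CPM in ACE-positive and 45.9 CPM in ACE-negative cells, a fold of 3.23 [2.93 to 3.56]. Its level was 126 CPM in CD74-positive and 60.7 CPM in CD74-negative cells, a fold of 2.08 [1.87 to 2.33]. Ifih1 had 145 CPM in ACE-positive and 69.9 CPM in ACE-negative cells (fold 2.07 [1.91 to 2.26]), and 129 CPM in CD74-positive and 69.5 CPM in CD74-negative cells (fold 1.86 [1.68 to 2.06], not called). Their regulator Dhx58, named after its values were seen, had 82.7 CPM in ACE-positive and 83.4 CPM in ACE-negative cells, and 92.5 CPM in CD74-positive and 75.1 CPM in CD74-negative cells. The DNA-binding protein Ifi204 was the most abundant sensor, with 439 CPM in ACE-positive and 416 CPM in ACE-negative cells, and 428 CPM in CD74-positive and 429 CPM in CD74-negative cells. Some of its reads may belong to relatives, since 20.0% of its 50-base stretches occur in other genes, mainly Ifi211. Zbp1, a sensor of Z-form nucleic acid, was called in neither sort.

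The IFIT genes, whose proteins bind viral RNA that lacks host modifications, lie together on chromosome 19 between 34550694 and 34650009, in the order Ifit2, Ifit3, Ifit3b and Ifit1. The gaps between neighbours in the set were 7.1, 19.2 and 27.5 kb. Summed over the 4 genes, levels were 618 CPM in ACE-positive and 249 CPM in ACE-negative cells, and 476 CPM in CD74-positive and 274 CPM in CD74-negative cells. Ifit2 had 243 CPM in ACE-positive and 93.6 CPM in ACE-negative cells (fold 2.60 [2.42 to 2.79]), and 187 CPM in CD74-positive and 92.3 CPM in CD74-negative cells (fold 2.03 [1.86 to 2.22]), and was called in both. Ifit3 had 258 CPM in ACE-positive and 92.4 CPM in ACE-negative cells, a fold of 2.80 [2.61 to 3.0]. Its fold in the CD74 sort was smaller, at 1.73 [1.59 to 1.89], from 181 CPM in CD74-positive and 105 CPM in CD74-negative cells. Ifit3b had 57.8 CPM in ACE-positive and 20.8 CPM in ACE-negative cells (fold 2.78 [2.40 to 3.23]), and 47.6 CPM in CD74-positive and 23.4 CPM in CD74-negative cells (fold 2.03 [1.70 to 2.44], log2 ratio 0.99). These copies are uncertain as separate genes, since Ifit3 shares 51.2% of its 50-base stretches with Ifit3b. Ifit1 at the end of the cluster differed least, at 58.6 CPM in ACE-positive and 42.5 CPM in ACE-negative cells (1.38-fold) and 60.3 CPM in CD74-positive and 54.0 CPM in CD74-negative cells (1.12-fold). Its promoter, printed above, holds the ISRE core as that of Ifit3 does.

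Of the 5 OAS genes, 4 were called higher in each sort, and Oas2 had the largest ratio of the set in both. Oas1a, Oas2 and Oas3 encode synthetases of oligoadenylates, which switch on the RNA-degrading enzyme RNase L, and Oasl1 and Oasl2 encode related proteins. Oas2 (ENSMUSG00000032690, chromosome 5, 120730333 to 120749853) had 199 CPM in ACE-positive and 56.0 CPM in ACE-negative cells, and 201 CPM in CD74-positive and 50.6 CPM in CD74-negative cells. Its folds of 3.56 [3.26 to 3.88] and 3.97 [3.55 to 4.46] had overlapping intervals. Oas3, 3.2 kb away (120753098 to 120777661), had 238 CPM in ACE-positive and 107 CPM in ACE-negative cells, a fold of 2.23 [2.09 to 2.39]. In the CD74 sort its fold of 3.08 [2.81 to 3.38] was larger, from 246 CPM in CD74-positive and 80.1 CPM in CD74-negative cells. The OAS-like pair lies 5792.4 kb from Oas2 on the same chromosome and was called in both sorts. Oasl1 had 83.4 CPM in ACE-positive and 37.7 CPM in ACE-negative cells (2.21-fold), and 77.5 CPM in CD74-positive and 35.9 CPM in CD74-negative cells (2.16-fold). Oasl2 had 333 CPM in ACE-positive and 157 CPM in ACE-negative cells (2.12-fold), and 329 CPM in CD74-positive and 157 CPM in CD74-negative cells (2.09-fold). Oas1a, singled out after its values were seen, lies 118.6 kb beyond Oas3 and was lower in both positive libraries, at 151 CPM in ACE-positive and 194 CPM in ACE-negative cells and 149 CPM in CD74-positive and 182 CPM in CD74-negative cells. Its folds were 0.780 [0.733 to 0.831] and 0.818 [0.762 to 0.879], not called, and 57.6% of its 50-base stretches also occur in Oas1g.

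None of the 3 genes of the ISG15 pathway was called by the ratio of CPM + 1 itself, while Isg15 was called in the ACE sort relative to genes of like length. Isg15 (ENSMUSG00000035692, chromosome 4, 156199455 to 156200796), a ubiquitin-like protein attached to other proteins after interferon, had 105 CPM in ACE-positive and 88.4 CPM in ACE-negative cells. It had 88.8 CPM in CD74-positive and 94.1 CPM in CD74-negative cells. The folds were 1.19 [1.1 to 1.29] and 0.944 [0.857 to 1.04]. Usp18, the enzyme that removes ISG15, and Herc6, the mouse ligase that attaches it, were also called in neither sort, with folds between 0.996 and 1.59.

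Of the 7 other antiviral effectors with a row, Rsad2 alone was called, and in the ACE sort only. Rsad2, which makes a chain-terminating nucleotide, had 174 CPM in ACE-positive and 55.2 CPM in ACE-negative cells, a fold of 3.15 [2.88 to 3.44]. Its level in CD74-positive cells was 144 CPM, against 86.8 CPM in CD74-negative cells, a fold of 1.66 [1.52 to 1.83]. Cmpk2, a nucleotide kinase 12.8 kb from Rsad2 on chromosome 12 and named after its values were seen, had 84.0 CPM in ACE-positive and 81.3 CPM in ACE-negative cells (fold 1.03 [0.944 to 1.13]). In the CD74 sort the neighbours were closer, since Cmpk2 had 117 CPM in CD74-positive and 77.5 CPM in CD74-negative cells (fold 1.51 [1.37 to 1.68]). Samhd1, which depletes the nucleotides that viruses copy with, had the highest level in CPM of the set, at 1476 CPM in ACE-positive and 926 CPM in ACE-negative cells (1.59-fold) and 1217 CPM in CD74-positive and 893 CPM in CD74-negative cells (1.36-fold). Bst2, which tethers budding virions, had 180 CPM in ACE-positive and 183 CPM in ACE-negative cells (fold 0.981 [0.923 to 1.04]), and 155 CPM in CD74-positive and 188 CPM in CD74-negative cells (fold 0.825 [0.769 to 0.885]). The remaining effectors, the exonuclease Isg20, the kinase Eif2ak2 and Trim30a, had folds between 0.998 and 1.72.

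The 5 interferon-induced GTPases, which act at pathogen vacuoles, had a median log2 ratio of 0.49 in the ACE sort and 0.24 in the CD74 sort, with 0 calls. Ifi47, the highest by mean level, had 124 CPM in ACE-positive and 104 CPM in ACE-negative cells, and 118 CPM in CD74-positive and 111 CPM in CD74-negative cells. Gbp2, named after its values were seen, was the nearest to a call, with 166 CPM in ACE-positive and 82.9 CPM in ACE-negative cells (log2 ratio 0.99) and 121 CPM in CD74-positive and 67.6 CPM in CD74-negative cells (log2 ratio 0.83). It lies in a row with Gbp7 and Gbp3 on chromosome 3, at gaps of 9.9 and 47.4 kb, and those neighbours had folds between 1.18 and 1.54.

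Among the last 5 genes, Parp14 and Ifi44 were called in both sorts. Parp14, an ADP-ribosyltransferase, had 307 CPM in ACE-positive and 101 CPM in ACE-negative cells (fold 3.05 [2.86 to 3.26]), and 303 CPM in CD74-positive and 112 CPM in CD74-negative cells (fold 2.71 [2.51 to 2.94]). Ifi44 was the member with the fewest reads, 215 in ACE-positive and 103 in ACE-negative cells, and 266 in CD74-positive and 56 in CD74-negative cells. Its folds of 2.18 [1.72 to 2.79] and 2.2 [1.65 to 3.0] therefore have the widest intervals of the called genes. Ifi35, named after its values were seen, had the lowest ratio of the 37 in each sort. It had 39.1 CPM in ACE-positive and 59.2 CPM in ACE-negative cells (fold 0.661 [0.586 to 0.745]), and 31.7 CPM in CD74-positive and 64.0 CPM in CD74-negative cells (fold 0.496 [0.433 to 0.568]), with a log2 ratio of -0.99 that just missed the call. Of its exon bases, 16.8% lie over the antisense gene Gm11626, and the strand setting of the counting is not given. Xaf1 and Rtp4 were called in neither sort, with folds between 1.08 and 1.68.

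**Figure D2:**
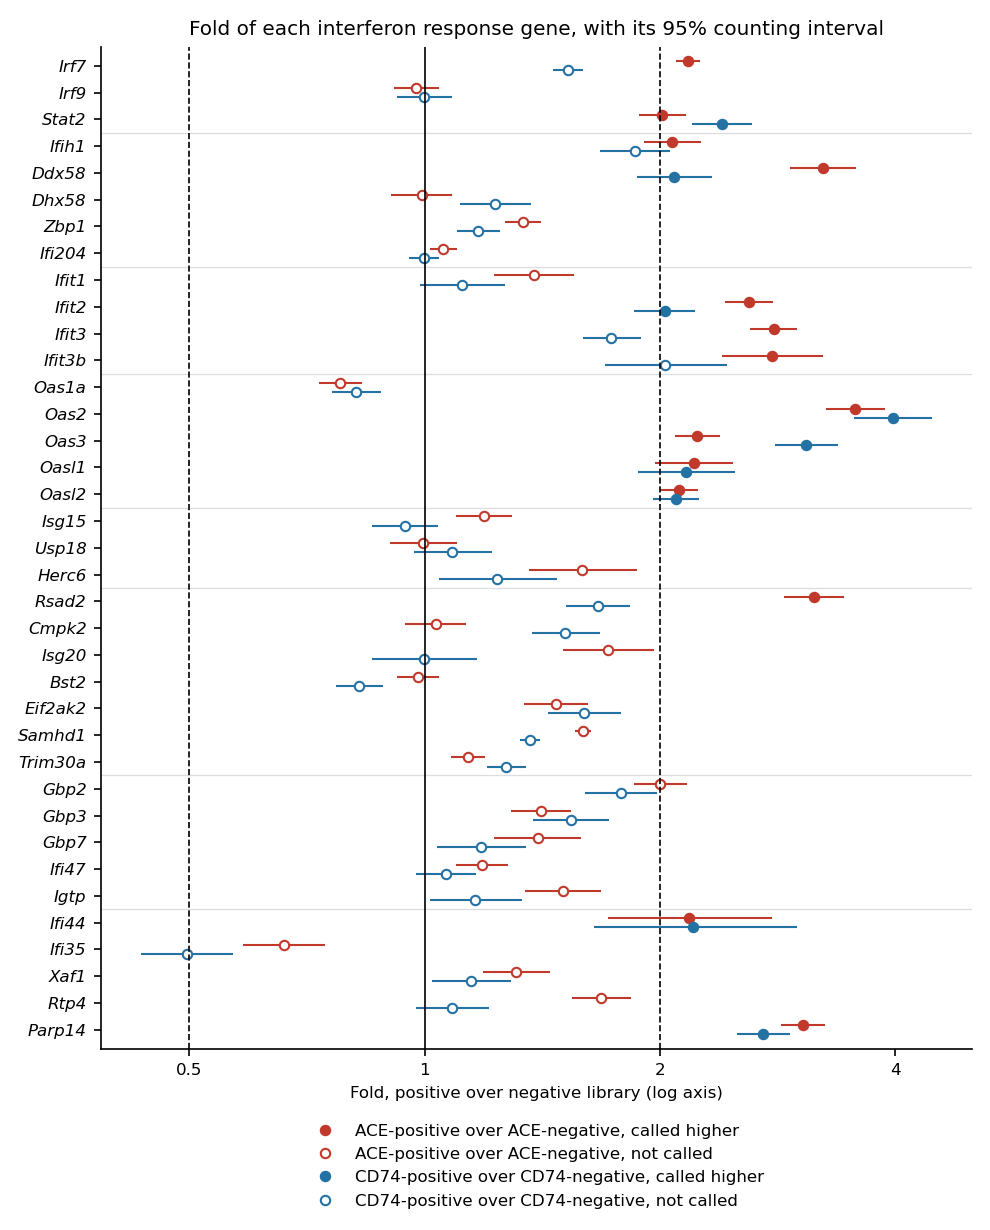
Fold of each interferon response gene, positive over negative library (log axis), with its 95% counting interval, in the ACE sort (red) and the CD74 sort (blue); filled points were called higher and dashed lines mark 0.5 and 2. Oas2 and Parp14 lie right of 2 in both sorts, Ddx58, Ifit3 and Rsad2 lie farther right in the ACE sort, and Oas3 lies farther right in the CD74 sort.

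Per kb of exon length, so that genes can be set side by side, Bst2 was the highest over the 4 libraries with a mean of 196 CPM per kb. Irf7 (139), Isg15 (134), Samhd1 (123) and Ifi204 (120 CPM per kb) came next. The range of each over the libraries overlapped that of the next in the order, since Bst2 ran from 172 to 209 CPM per kb and Irf7 from 97.0 to 211 CPM per kb. Of these 5, Irf7 alone was called. The lowest were Ifi44, at 2.23 CPM per kb, and Herc6, at 3.20 CPM per kb.

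The sorts were then set side by side. The tables share no libraries, but they were scaled separately, and the labels do not say whether the cells came from the same animals. Ace and Cd74 were each called higher in both sorts, and how far both positive groups hold the same cells was not tested. Called higher in both sorts were 9 genes, namely Oas2, Oas3, Oasl1, Oasl2, Stat2, Parp14, Ddx58, Ifit2 and Ifi44. They made up 64.3% of the ACE calls and 100% of the CD74 calls. The 5 called in the ACE sort only were Irf7, Ifih1, Ifit3, Ifit3b and Rsad2. The ratio was above 0 in both sorts for 28 genes, below 0 in both for 4, and of opposite sign for 5. Counting intervals showed a larger fold in the ACE sort for 13 genes, among them Irf7, Ddx58, Ifit2, Ifit3 and Rsad2. A larger fold in the CD74 sort was seen for 5 genes, namely Stat2, Dhx58, Oas3, Cmpk2 and Trim30a. For the other 19 the intervals overlapped, including Ifih1 and Ifit3b, so a call in the ACE sort alone does not show a larger fold there. With 1 library per group, these differences between sorts have no replicate check. The matching counts over all genes were not computed. The shared calls, signs and interval counts are therefore a description and no result about the members.

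**Figure D3:**
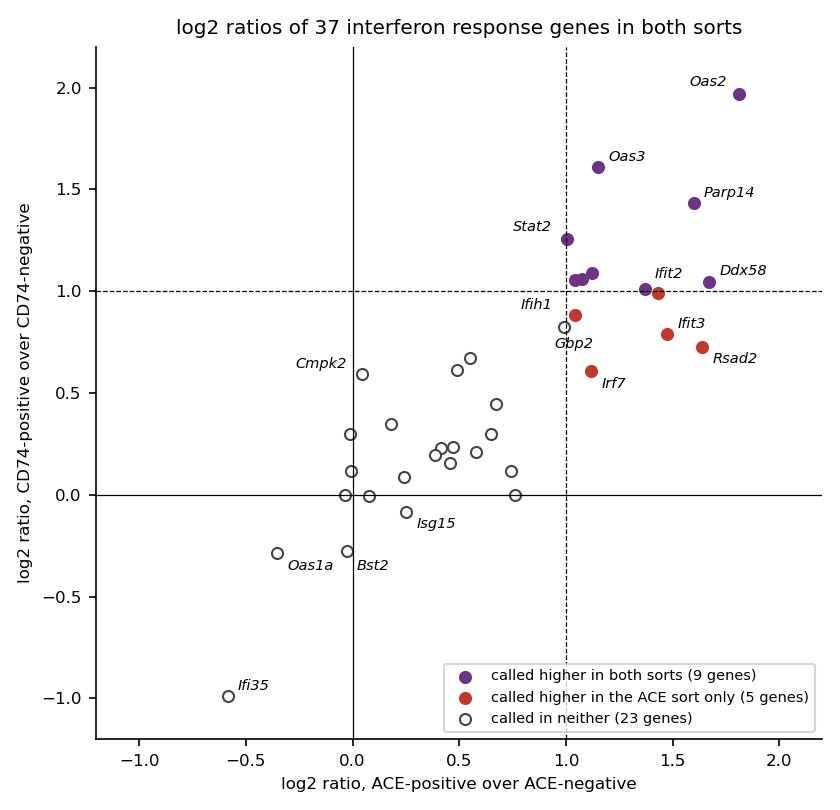
The log2 ratio of CPM + 1 of each of the 37 genes in the ACE sort (horizontal axis) and the CD74 sort (vertical axis), with the call threshold of 1 as dashed lines. The 9 genes called in both sorts (purple) lie at the upper right with Oas2 at 1.81 and 1.97, the 5 called in the ACE sort only (red) lie below the horizontal line, and Ifi35 lies apart at -0.59 and -0.99.

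Gene length moved with the ratios. Across all genes tested, Spearman's rho between log2 ratio and length was 0.40 in the ACE sort and 0.50 in the CD74 sort, and across the 37 members it was 0.36 and 0.58. These are correlations across genes of the same libraries, given as a description. Called members were longer, with a median of 5189 bases in the ACE sort, against 3265 bases for those not called, and 6129 bases in the CD74 sort, against 3269 bases. The running median of all genes lay at -0.77 in the ACE sort and -1.0 in the CD74 sort at the length of Isg15, the shortest member, and at 0.25 and 0.37 at the length of Parp14, the longest. With each log2 ratio taken relative to genes of like length, 16 members were called higher in the ACE sort, against 9.21% of all genes, and 9 in the CD74 sort, against 6.71%. None was called lower, against 4.86% and 4.05% of all genes. The median of the members was then 0.88 in the ACE sort and 0.70 in the CD74 sort, with 35 and 34 of 37 above 0. Short genes moved most: Isg15 came to 1.02 in the ACE sort and 0.92 in the CD74 sort, Bst2 to 0.71 and 0.70, and Oas1a to 0.12 and 0.28. Called in the ACE sort on this scale were also Isg15, Gbp2, Isg20, Igtp and Rtp4, while Ifih1, Stat2 and Ifi44 were not. In the CD74 sort Ifit3, Ifit3b and Gbp2 were called on this scale, while Ddx58, Oasl2 and Ifi44 were not. Oas2 changed little, at 1.90 and 2.0.

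**Figure D4:**
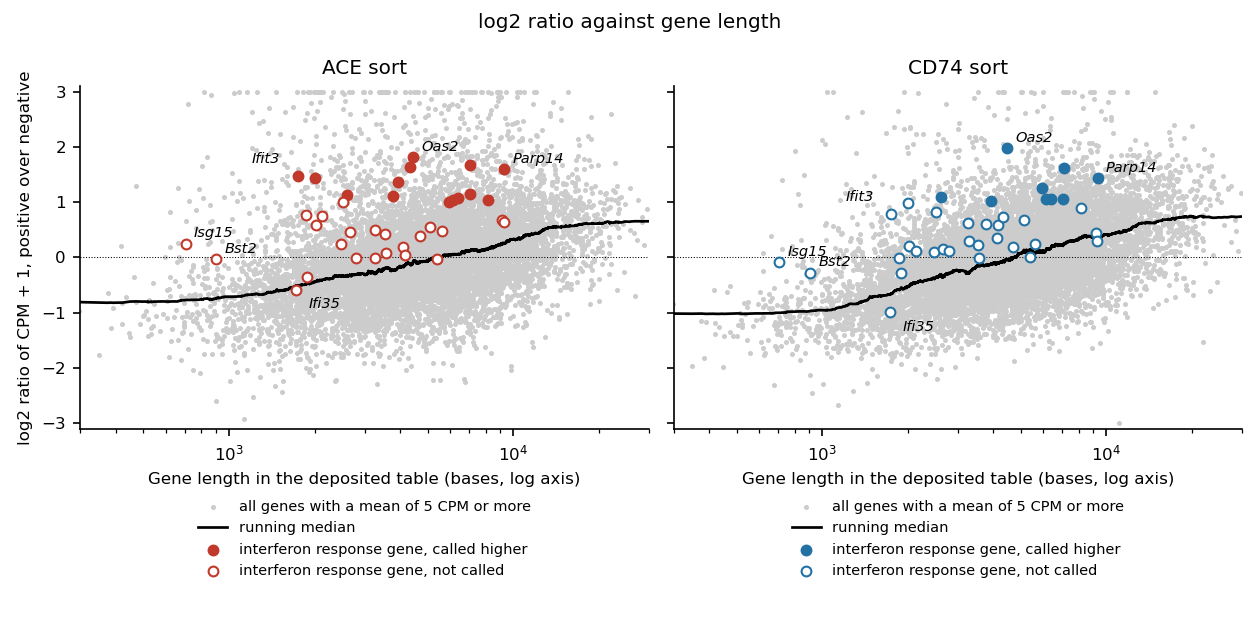
The log2 ratio of CPM + 1 against gene length in the deposited table (bases, log axis) for all genes with a mean of 5 CPM or more (grey), with their running median (line) and the interferon response genes (coloured, filled where called higher). Points past the vertical limits are drawn at the edge; the line climbs with length in both sorts, and Isg15 and Bst2 lie near 0 but well above it, while Ifi35 lies close to it or below.

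Interferons themselves were at or near the limit of detection. Of 21 ligand genes, 4 had a row in the ACE table and 5 in the CD74 table, and none reached 5 CPM. Ifnb1 had 17 reads in ACE-positive and 8 in ACE-negative cells, and 5 in CD74-positive and 1 in CD74-negative cells. Ifng had 3 reads in ACE-positive and 5 in ACE-negative cells, and 8 in CD74-positive and 11 in CD74-negative cells. A gene with 0 reads may still have a level of up to 3 reads per library, or 0.262 CPM in ACE-positive, 0.250 CPM in ACE-negative, 0.212 CPM in CD74-positive and 0.456 CPM in CD74-negative cells.

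Of 22 genes of interferon receptors and signalling, 3 of the 21 tested were called higher and 1 lower in ACE-positive cells (median log2 ratio 0.52), and 2 of 22 higher in CD74-positive cells (median 0.43). Over all genes the shares were 9.46% higher and 8.62% lower (ACE sort) and 9.08% higher (CD74 sort). These few calls are near the background and by themselves are no result about the list. Over all genes the median was -0.08 in the ACE sort and -0.03 in the CD74 sort. The interferon response genes had medians of 0.65 and 0.45. Socs3, a feedback inhibitor of cytokine signalling, was called in both, at 418 CPM in ACE-positive and 119 CPM in ACE-negative cells and at 274 CPM in CD74-positive and 93.9 CPM in CD74-negative cells. Ifngr1, the receptor chain that binds type II interferon, had 502 CPM in ACE-positive and 219 CPM in ACE-negative cells (fold 2.29 [2.19 to 2.40]). It was not called in the CD74 sort, with 314 CPM in CD74-positive and 220 CPM in CD74-negative cells (fold 1.43 [1.35 to 1.52]). Irf2, a repressor of interferon targets, was called in the ACE sort at 2.03-fold, but not relative to genes of like length. Irf8, a factor of monocyte and dendritic cell development, was called lower, at 307 CPM in ACE-positive and 709 CPM in ACE-negative cells. In the CD74 sort it had 382 CPM in CD74-positive and 677 CPM in CD74-negative cells, called lower only relative to genes of like length. The low-abundance receptor gene Ifnlr1 was called in the CD74 sort, at 9.24 CPM in CD74-positive and 3.80 CPM in CD74-negative cells. The abundant Ptpn6 and Irf5 were called in neither sort, with folds between 0.876 and 1.03.

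A list of 18 innate sensors and their adaptors outside the set, mostly for nucleic acid, had 5 of 18 tested called higher in ACE-positive cells (median log2 ratio 0.33), against 9.46% of all genes. In CD74-positive cells it had 3 of 17 (median 0.54), against 9.08%. In either sort 0 were called lower, against 8.62% (ACE) and 7.73% (CD74) of all genes, which is near the background in a list this short. The medians over all genes were -0.08 in the ACE sort and -0.03 in the CD74 sort. These calls include Nod1 in both sorts and Nod2 in the ACE sort, which sense bacterial peptidoglycan and not nucleic acid. Tlr7, the endosomal sensor of single-stranded RNA, had 232 CPM in ACE-positive and 72.9 CPM in ACE-negative cells (called), and 117 CPM in CD74-positive and 65.1 CPM in CD74-negative cells (not called). Tlr9, the sensor of unmethylated DNA, was called in both sorts, at 116 CPM in ACE-positive and 39.1 CPM in ACE-negative cells and at 123 CPM in CD74-positive and 35.1 CPM in CD74-negative cells. Nod1 and the adaptor Traf3 were called in both sorts, and Nod2 in the ACE sort, with folds between 2.17 and 3.39. Traf3 was not called in the ACE sort relative to genes of like length. Unc93b1, which carries Tlr7 and Tlr9 to the endosome, had 730 CPM in ACE-positive and 829 CPM in ACE-negative cells and 716 CPM in both CD74-positive and CD74-negative cells. The shared adaptor Myd88 had folds of 1.03 and 1.14.

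Of 80 further interferon-inducible genes, 74 had a row. In ACE-positive cells 18 of 70 tested were called higher, against 9.46% of all genes, and 0 lower, against 8.62%, with a median log2 ratio of 0.37, against -0.08. In CD74-positive cells 14 of 71 were called higher, against 9.08% of all genes, and 0 lower, against 7.73%, with a median of 0.19, against -0.03. Levels of the 74 genes summed to 13547 CPM in ACE-positive and 12892 CPM in ACE-negative cells. In the CD74 sort they summed to 12520 CPM in CD74-positive and 12619 CPM in CD74-negative cells, so the summed level was not higher there. The chemokine gene Cxcl9, induced chiefly by type II interferon, had 70.2 CPM in ACE-positive and 10.8 CPM in ACE-negative cells (fold 6.47 [5.37 to 7.85]). Its level was 46.2 CPM in CD74-positive and 11.2 CPM in CD74-negative cells (fold 4.11 [3.23 to 5.30]). The GTPase genes Gbp4, Gbp8 and Gbp9, unlike the 3 Gbp genes of the set, were called in both sorts. Gbp9 had 115 CPM in ACE-positive and 27.4 CPM in ACE-negative cells, and 91.6 CPM in CD74-positive and 33.4 CPM in CD74-negative cells. Gbp4 was 5.75-fold and Gbp8 6.11-fold higher in ACE-positive cells. Ly6a was 4.00-fold and Ifit1bl1 3.09-fold higher in ACE-positive cells. In CD74-positive cells Gbp8 was 5.71-fold, Znfx1 3.45-fold, Helz2 2.86-fold, Nlrc5 2.84-fold and Ifi213 2.77-fold higher. The most abundant genes of the list were called in neither sort. Ly6e had 2649 CPM in ACE-positive and 2637 CPM in ACE-negative cells and 2212 CPM in CD74-positive and 2571 CPM in CD74-negative cells. Ifitm3, which blocks viral entry, had 1108 CPM in ACE-positive and 1152 CPM in ACE-negative cells and 790 CPM in CD74-positive and 1154 CPM in CD74-negative cells. Slfn2 had folds of 0.778 and 0.711.

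The authors' deposited table gives a p-value for each gene, from a test that is not given in the sources used here. Oas2 had a p of 0.0305 in the ACE sort and 0.0192 in the CD74 sort in the authors' deposited table. Ddx58 had a p of 0.0473 in the ACE sort in the authors' deposited table, and no other member was under 0.05. After adjustment 0 members were under 0.05 in either sort in the authors' deposited table, against 22 of all genes in the ACE sort and 1 in the CD74 sort.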

How the data were processed

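Per the labels' protocols, cells were sorted by flow cytometry, RNA was extracted with Trizol, and libraries were made with an Illumina TruSeq RNA kit. HISAT2 and GRCm38 are named in the submitters' processing notes. Not given in the sources used here are the counter, its strand setting, the annotation and the authors' test. The deposited tables, one per sort, hold for each library a signal (read counts divided by a size factor) per the file headers, and the authors' fold (positive over negative ratio), log2 fold, p-value and adjusted p-value. Gene lengths in the deposited tables equalled the exon union of GENCODE M21 for 98.0% of matched genes. The CD74 samples' labels name their table differently, and its columns were matched by the table's own name and header. The number of other per-library columns was 0.

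The design assumed counts. Deposited values were whole multiples of a step (100% of values, within 0.001 reads), so reads were recovered and scaled to CPM with TMM (edgeR 4.0.16, R 4.3.3). Log2 ratios used CPM + 1, which understates ratios of low genes, while folds used CPM, with 95% intervals from the exact (Clopper-Pearson) conditional binomial. Neither edgeR's quasi-likelihood test nor DESeq2 could be fitted, because single libraries leave no residual degrees of freedom, so no p-value was computed. For ratios relative to genes of like length, a running median over 501 genes ordered by length was subtracted. Shared 50-base stretches and antisense overlap came from GENCODE M21. Scripts were tested on simulated data. Other steps used Python 3.11.15, matplotlib 3.10.9, scipy 1.17.1, pandas 2.3.3 and numpy 2.4.6.

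The members and gene lists were chosen with earlier results of these data known. Genes given with all values were the called members, the transcription factors, the 5 highest per exon length and the highest of each role. From each pathway list came the 3 highest by mean and up to 6 called genes per sort. The marker counts below stand against 9.46% of all genes called higher and 8.62% lower in the ACE sort. In the CD74 sort these shares were 9.08% and 7.73%. In lists this short, 1 call in a direction is near these shares and is no result about the list. Of the remaining marker lists, T and NK cells (4 of 4 tested called lower in ACE-positive and 3 of 4 in CD74-positive cells) summed to 22.9 CPM in ACE-positive and 99.4 CPM in ACE-negative cells, and to 41.8 CPM in CD74-positive and 123 CPM in CD74-negative cells. B cell markers (4 of 7 higher in ACE-positive cells, 1 of 8 higher and 1 lower in CD74-positive cells) summed to 182 CPM in ACE-positive and 100 CPM in ACE-negative cells, and to 166 CPM in CD74-positive and 228 CPM in CD74-negative cells. Basophil and mast cell markers (3 of 6 lower in ACE-positive and 5 of 6 higher in CD74-positive cells) summed to 121 CPM in ACE-positive and 241 CPM in ACE-negative cells, and to 777 CPM in CD74-positive and 184 CPM in CD74-negative cells. Erythroid markers (5 of 8 higher in ACE-positive and 5 of 8 lower in CD74-positive cells) summed to 840 CPM in ACE-positive and 437 CPM in ACE-negative cells, and to 561 CPM in CD74-positive and 1345 CPM in CD74-negative cells. Relative to genes of like length, 7 erythroid markers were called higher in ACE-positive cells, against 9.21% of all genes. On this scale 0 were called lower in CD74-positive cells, against 4.05%. Fibroblast and osteoblast markers (4 of 8 higher in ACE-positive and 1 of 8 lower in CD74-positive cells) summed to 2695 CPM in ACE-positive and 900 CPM in ACE-negative cells, and to 2102 CPM in CD74-positive and 1430 CPM in CD74-negative cells. Endothelial markers (2 of 4 higher in ACE-positive cells, 2 of 4 higher and 1 lower in CD74-positive cells) summed to 112 CPM in ACE-positive and 64.7 CPM in ACE-negative cells, and to 108 CPM in CD74-positive and 78.7 CPM in CD74-negative cells.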

Additional observations from a re-analysis of the deposited data

Results flagged for a closer look

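Among the genes of interferon signalling and nucleic acid sensing, Tyk2 and Ikbke moved in opposite directions in the sorts, with counting intervals on either side of 1. The kinase Tyk2, which acts at the type I interferon receptor, had a fold of 0.877 [0.820 to 0.939] in the ACE sort and 1.32 [1.22 to 1.43] in the CD74 sort. Ikbke, a kinase upstream of interferon production, had a fold of 0.758 [0.674 to 0.852] in the ACE sort and 1.16 [1.03 to 1.31] in the CD74 sort. The difference between sorts was not tested, since each group is 1 library. The direction of Ikbke in the CD74 sort turned to a fold of 0.907 relative to genes of like length. Tyk2 in the ACE sort had a fold of 0.963, nearer to 1, when scaled to plain totals.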

How the results depend on the processing

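Under 9 alternatives and 1 chosen after seeing the data, 12 to 16 members were called higher in the ACE sort. In the CD74 sort 7 to 12 were, and no called value changed sign in either sort. Of 23 member calls, 16 were kept under each of the 9 alternatives. The share of all genes called higher moved with the setting too. A pseudocount of 5 put it at 7.26% (ACE, 12 members) and 6.49% (CD74, 7 members). Plain totals put it at 11.97% (ACE, 15 members) and 13.28% (CD74, 12 members). Centring by gene length gave 9.21% (ACE, 16 members) and 6.71% (CD74, 9 members). The highest ACE share was 12.24%, with a minimum mean of 1 CPM (14 members). Over 666 member values, 12 lost a call and 17 gained one. The lost calls were Stat2, Ifih1 and Ifi44 in the ACE sort and Ddx58, Ifit2, Oasl2 and Ifi44 in the CD74 sort. Scaling to plain totals moved the median log2 ratio of members to 0.78 in the ACE sort and 0.63 in the CD74 sort. It put that of all genes at 0.05 (ACE) and 0.15 (CD74), instead of -0.08 and -0.03, so the members' median stayed 0.72 and 0.49 above it. Of all calls, 52.3% in the ACE sort and 54.0% in the CD74 sort were higher, 67.2% and 74.8% with plain totals, and 65.5% and 62.3% centred by gene length. Centring by gene length gave medians of 0.88 and 0.70. Without members that share over 10% of their 50-base stretches with another gene, the CD74 median was 0.61. In the CD74 sort Ifi35 became 1 member called lower with upper quartile scaling and with a pseudocount of 0.1. Of the receptor and signalling genes in the CD74 sort, 1 was called higher with a pseudocount of 5 or a minimum mean of 10, and 1 lower (Irf8) centred by length. Apart from these constructions, the cause was not tested. Leaving out a replicate was not possible with 1 library per group. No paired analysis was possible because each group is 1 library and the labels carry no replicate numbers. Depth limits Ifi44 most, at 56 reads in CD74-negative cells.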
